A study of Homo sapiens with 9 samples.

Results

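Enzymes that remove superoxide and peroxides were described here as a group of 10 listed genes, chosen by name as cytosolic and mitochondrial superoxide dismutases, peroxidases and thioredoxins. They are SOD1, SOD2, CAT, GPX1, GPX4, PRDX1, PRDX3, PRDX5, TXN and TXN2. Of these, 9 were matched by gene ID to rows of the table of 22290 genes, and SOD2, the manganese dismutase of the mitochondrial matrix, was not analysed here. RNA was sequenced from cells labelled IMR-32, an established human neuroblastoma line, in 3 libraries of parental cells carrying the label WT, 3 carrying the label KD (TRAP-1 knockdown) and 3 carrying the label OE (TRAP-1 overexpression). TRAP-1 is the mitochondrial relative of the chaperone Hsp90. How the KD and OE cells were made, and whether either is a single clone, was not given in the sources used here. Each value is a regularized log2 value (rlog), in which library size is scaled out and each gene is drawn toward its own mean, more strongly at low levels. Differences are therefore smaller than log2 fold changes of counts, and sequencing depth is unknown from these values.

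Superoxide leaks from the respiratory chain and is made on purpose by NADPH oxidases. Superoxide dismutases turn it into hydrogen peroxide, which catalase splits, mainly in peroxisomes, and which glutathione peroxidases and peroxiredoxins reduce. Peroxiredoxins are returned to their active state by thioredoxins, TXN in the cytosol and nucleus and TXN2 in mitochondria. GPX4 differs from the others in reducing lipid peroxides within membranes, and it protects cells from ferroptosis.

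TRAP1 itself (ENSG00000126602) was examined first, because it checks the labels. Its rlog values were 10.67, 10.66 and 10.65 in the parental libraries, 10.79, 10.79 and 10.83 in those labelled KD, and 10.67, 10.63 and 10.74 in those labelled OE. All 3 libraries labelled KD thus lay above all 3 parental libraries, and the libraries labelled OE overlapped the parental ones. The difference from parental was 0.14 in KD (adjusted p = 1.76e-05 from limma) and 0.018 in OE (adjusted p = 0.643 from limma). The OE difference was called, at 0.064 (limma adjusted p = 0.0341), in 1 of the alternatives, where regional medians of the more abundant genes were removed. TRAP1 RNA therefore goes against the label of the KD libraries and was not detectably higher in the OE libraries, so KD and OE stand below only for the labels the libraries carry. Other annotated genes overlap 28.5% of its exonic bases.

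The labelled cell type was checked against marker genes. Of 17 listed markers of adrenergic neuroblastoma 12 had values, and 6 of these had a mean rlog under 5, where the median over all genes was 7.05. Some markers were near the bottom of the range, with parental means of 1.33 for PHOX2A, 2.52 for MYCN, 2.84 for TH and 2.60 for GAP43. Others were higher, with parental means of 7.25 for GATA3, 6.36 for HAND2, 6.35 for SYP and 5.87 for CHGB. Levels as low as those of PHOX2A, MYCN and TH go against the labelled cell line. The study's methods report the line as authenticated, and its identity was not tested here. ISL1, at 9.37, and GATA2, at 9.27, had the highest rlog of the list, not corrected for length, as for all marker lists here. Back on the linear scale the list summed to 1717, 1679 and 1689 in the parental libraries, 1557, 1537 and 1575 in KD and 1579, 1671 and 1631 in OE.

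Some markers of other cell types had higher rlog values. Their counts of calls stand beside 26.9% of all genes called higher and 26.9% lower in KD, and 16.9% and 18.0% in OE. The mesenchymal list, with values for all of its 9 genes, summed to 57868, 57842 and 57678 in the parental libraries, 77942, 78530 and 77870 in KD and 66144, 65052 and 66402 in OE. Most of this sum was VIM, an intermediate filament gene active in many cultured lines, while COL1A1, COL1A2 and COL3A1 had parental means of 4.21, 1.35 and 1.16, and PDGFRB of 8.48. Of the 9 genes, 2 rose in KD (VIM and PRRX1, by 1.29 for PRRX1 from a parental mean of 11.70), 1 fell (LUM) and 6 were not called, and in OE 3 rose (VIM, PRRX1, by 0.69, and LUM) and 6 were not called, so neither the sum nor any 1 gene stands for the list. In bulk RNA, fewer cells of a type and less RNA per cell cannot be told apart, and the part of this list in the member values was not tested. Among 9 epithelial markers KRT18 had the highest rlog and CLDN4 the next, and KRT8 and KRT14 had parental means of 8.70 and 7.54. Of the 9, 4 had a mean rlog under 5, among them EPCAM, with a parental mean of 2.59. KRT18 has 68 annotated pseudogenes and KRT8 has 51, and they share exonic bases with each other. In KD 1 rose (KRT8), 2 fell (KRT7 and KRT14) and 6 were not called, in OE 1 rose (KRT8) and 3 fell (KRT14, KRT18 and CLDN4), and the list summed to 6057, 6082 and 6016 in the parental libraries, 6039, 6197 and 6268 in KD and 5494, 5456 and 5525 in OE. Glial markers with values were 3, led by S100B at 11.09 and with GFAP at 5.82, and summed to 4023, 4036 and 3946 in the parental libraries, 3795, 3797 and 3785 in KD and 4903, 4857 and 5010 in OE. The 2 immune markers with values summed to between 57 and 71 in any library, and PTPRC had a parental mean of 2.65. The 3 endothelial markers summed to 730, 730 and 718 in the parental libraries, 1004, 1013 and 984 in KD and 582, 601 and 628 in OE, led by PECAM1, which rose by 0.47 in KD and fell by 0.28 in OE, with CDH5 at 0.63 in the parental libraries.

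TXN and GPX1, which had the widest ranges of group means, PRDX5, which rose most in KD, and CAT, which rose most in OE, are shown first by their promoters, taken from RefSeq on GRCh38.p14. Of the 9 members with values, 6 had an entry in the promoter table. Each run is 300 bases around a start site of that source, on the strand of the gene. The GPX1 window lies wholly within the exonic span of the gene model used for counting lengths here, and the other 3 lie mostly before the start of theirs. Capitals mark letters of 5 motifs searched on both strands. The core of the antioxidant response element was spelled TGACNNNGC. An E-box was searched for as the letters CACGTG. For the CCAAT box the letters of its name were used. The GC box was taken as GGGCGG. For the TATA box the search used TATAAA. TXN lies on the minus strand at chr9:110256458-110256757, GPX1 on the minus strand at chr3:49358304-49358603, CAT on the plus strand at chr11:34438684-34438983 and PRDX5 on the plus strand at chr11:64317871-64318170.
TXN: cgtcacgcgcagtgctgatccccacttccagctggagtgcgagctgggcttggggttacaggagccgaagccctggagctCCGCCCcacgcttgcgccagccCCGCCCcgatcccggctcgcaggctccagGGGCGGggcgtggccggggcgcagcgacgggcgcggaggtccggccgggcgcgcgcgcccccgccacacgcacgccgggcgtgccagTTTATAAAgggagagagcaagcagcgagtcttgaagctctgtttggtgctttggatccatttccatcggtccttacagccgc
GPX1: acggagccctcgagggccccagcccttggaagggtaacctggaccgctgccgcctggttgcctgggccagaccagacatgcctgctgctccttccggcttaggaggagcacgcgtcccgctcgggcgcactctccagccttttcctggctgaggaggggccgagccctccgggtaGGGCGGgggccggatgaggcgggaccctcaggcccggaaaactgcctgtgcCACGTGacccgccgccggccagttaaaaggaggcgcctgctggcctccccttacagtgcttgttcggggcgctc
CAT: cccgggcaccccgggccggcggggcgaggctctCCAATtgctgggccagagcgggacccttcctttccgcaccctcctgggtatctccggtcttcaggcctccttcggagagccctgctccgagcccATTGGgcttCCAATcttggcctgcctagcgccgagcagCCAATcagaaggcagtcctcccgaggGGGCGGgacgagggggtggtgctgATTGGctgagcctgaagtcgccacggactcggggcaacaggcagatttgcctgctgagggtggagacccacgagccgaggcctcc
PRDX5: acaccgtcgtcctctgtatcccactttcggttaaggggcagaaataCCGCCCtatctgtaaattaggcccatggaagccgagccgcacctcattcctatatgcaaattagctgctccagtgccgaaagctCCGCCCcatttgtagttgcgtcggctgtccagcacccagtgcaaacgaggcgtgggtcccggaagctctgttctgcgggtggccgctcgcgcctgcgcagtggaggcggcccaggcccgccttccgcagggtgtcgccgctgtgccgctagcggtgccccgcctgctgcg

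The 4 windows differ in their motifs. TXN held 3 GC boxes and a TATA box that matched on both strands in overlapping letters. GPX1 held 1 GC box and 1 E-box, PRDX5 2 GC boxes, and CAT 5 CCAAT boxes with 1 GC box. PRDX5 has a second entry, not shown, that held 1 GC box. The core of the antioxidant response element was in none of the 4 windows. Among 35116 promoters of the same length, 13.3% held the antioxidant response element core, 7.26% an E-box, 34.6% a CCAAT box, 45.0% a GC box and 11.5% a TATA box. A match describes letters only and was not tested for any function.

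In the libraries labelled KD, 5 of the 9 members fell against parental (TXN, GPX1, PRDX1, SOD1 and PRDX3), 2 rose (PRDX5 and TXN2), and 2 were not called (CAT and GPX4). Of all genes, 26.9% were called lower and 26.9% higher in this comparison, at an adjusted p under 0.05. The groups did not overlap in 8 of the 9 members, against 59.2% of all genes. The median difference of the members was -0.090, and that of all genes was -5.1e-04. In size, the members' median was 0.10, that of all genes 0.081, and that of the 9956 genes whose mean rlog reached 8, most of them with a lower mean rlog than any member, was 0.13.

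**Figure D1:**
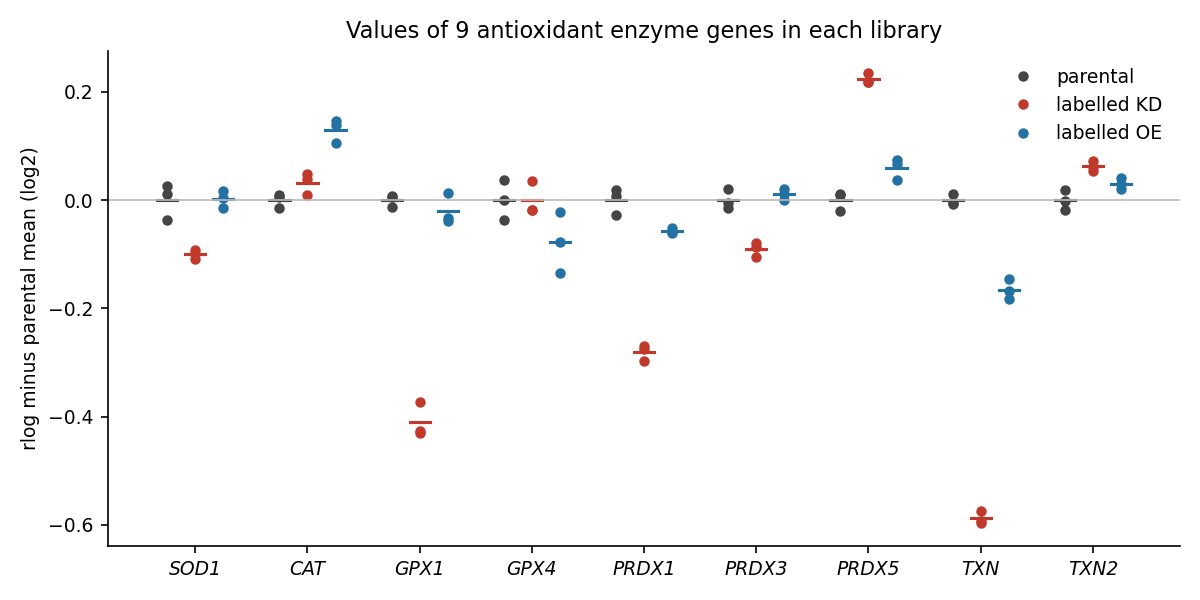
Values of the 9 genes in each library, as rlog minus the mean of the 3 parental libraries (log2). Points are libraries and short lines are group means, and TXN, GPX1 and PRDX1 in the libraries labelled KD lie furthest below the parental values.

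The cytosolic thioredoxin TXN (ENSG00000136810, chromosome 9 from 110243810 to 110256507) had the widest range of group means. Its rlog values were 13.20, 13.21 and 13.20 in the parental libraries, 12.60, 12.61 and 12.63 in KD, and 13.06, 13.02 and 13.03 in OE. No library of any group overlapped another group, with KD lowest and OE between KD and parental. Against parental, TXN fell by 0.59 in KD (standard error 0.015, adjusted p = 2.37e-25 from limma) and fell by 0.17 in OE (adjusted p = 1.16e-10 from limma). TXN has 7 annotated pseudogenes, 2 of which had values of their own, so reads of near-identical copies may be split or shared.

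Mitochondrial TXN2 (ENSG00000100348, chromosome 22 from 36467046 to 36481640) moved the other way in KD. Its values were 11.63, 11.61 and 11.65 in the parental libraries, 11.70, 11.69 and 11.68 in KD, and 11.65, 11.66 and 11.67 in OE. The parental libraries were below all others, by little, and 1 pseudogene is annotated. TXN2 rose by 0.062 in KD (standard error 0.019, adjusted p = 0.00559 from limma), whereas its OE difference of 0.030 was not called (adjusted p = 0.240 from limma, 95% confidence interval -0.0083 to 0.068). That OE difference was called after quantile normalization (0.055, adjusted p = 0.0208 from limma), and adjusted p values over all alternatives ran from 0.00299 to 0.666. The rlog of TXN minus that of TXN2, a comparison of change and not of level, went from 1.57 ± 0.028 (SD, n = 3) in the parental libraries to 0.92 ± 0.021 (SD, n = 3) in KD and 1.37 ± 0.025 (SD, n = 3) in OE.

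GPX1 (ENSG00000233276, chromosome 3 from 49357174 to 49358605) encodes the abundant glutathione peroxidase of cytosol and mitochondria, a selenoprotein. Its values were 12.73, 12.73 and 12.71 in the parental libraries, 12.29, 12.30 and 12.35 in KD, and 12.69, 12.69 and 12.74 in OE. The KD libraries were all below the rest, and the OE and parental libraries overlapped. GPX1 fell by 0.41 in KD (standard error 0.018, adjusted p = 3.35e-19 from limma). In OE the difference was -0.020 (adjusted p = 0.443 from limma, 95% confidence interval -0.056 to 0.017). Another annotated gene overlaps 39.9% of its exonic bases, and 2 pseudogenes are annotated, so its counts are uncertain to that extent.

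GPX4 (ENSG00000167468, chromosome 19 from 1103982 to 1106791), the other selenoprotein here, had the widest spread among the OE libraries. Its values were 11.55, 11.51 and 11.48 in the parental libraries, 11.49, 11.49 and 11.55 in KD, and 11.43, 11.38 and 11.49 in OE. KD and parental libraries overlapped fully, and 1 OE library lay within the parental range. The KD difference was -6.5e-05 (adjusted p = 0.998 from limma, 95% confidence interval -0.050 to 0.050). In OE, GPX4 fell by 0.078 (standard error 0.024, limma adjusted p = 0.0121). This did not pass without parental replicate 1 (-0.059, adjusted p = 0.101) and without OE replicate 2 (-0.049, adjusted p = 0.157), and also with no variance trend (adjusted p = 0.0930), after quantile normalization (adjusted p = 0.0675) and with block medians removed (adjusted p = 0.0557, limma throughout).

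The peroxiredoxins did not share a direction. PRDX1 (ENSG00000117450, chromosome 1 from 45510914 to 45542732), mainly cytosolic, was at 13.81, 13.82 and 13.77 in the parental libraries, 13.53, 13.50 and 13.53 in KD, and 13.74, 13.74 and 13.75 in OE. The order was again KD lowest, OE between, parental highest, with no overlap. PRDX1 fell by 0.28 in KD (standard error 0.014, adjusted p = 5.36e-18 from limma) and fell by 0.058 in OE (adjusted p = 9.56e-04 from limma). It shares 29.8% of its exonic bases with MMACHC, and 1 pseudogene is annotated.

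PRDX5 (ENSG00000126432, chromosome 11 from 64318121 to 64321811), found in mitochondria, peroxisomes and cytosol and with 1 annotated pseudogene, gave the reverse order. Its values were 12.45, 12.48 and 12.48 in the parental libraries, 12.69, 12.69 and 12.71 in KD, and 12.54, 12.51 and 12.55 in OE. Again no groups overlapped, but here KD was highest and parental lowest. PRDX5 rose by 0.22 in KD (standard error 0.016, adjusted p = 1.68e-13 from limma) and by 0.059 in OE (adjusted p = 0.00419 from limma). Mitochondrial PRDX3 (ENSG00000165672, chromosome 10 from 119167720 to 119178812), for which 4 pseudogenes are annotated, fell by 0.090 in KD (adjusted p = 2.48e-06 from limma), from a parental range of 13.25 to 13.29 to 13.16 to 13.19. In OE it ranged from 13.27 to 13.29, and the difference of 0.011 was not called (adjusted p = 0.611 from limma).

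Cytosolic copper-zinc dismutase SOD1 (ENSG00000142168, chromosome 21 from 31659666 to 31668931), with 3 annotated pseudogenes, was at 12.64 to 12.71 in the parental libraries, 12.57 to 12.59 in KD and 12.66 to 12.70 in OE. It fell by 0.10 in KD (standard error 0.017, limma adjusted p = 6.51e-06), and the OE difference was 0.0019 (adjusted p = 0.951 from limma, 95% confidence interval -0.033 to 0.037).

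Catalase, CAT (ENSG00000121691, chromosome 11 from 34438934 to 34472060), rose in OE. Its values were 11.65, 11.65 and 11.63 in the parental libraries, 11.65, 11.69 and 11.68 in KD, and 11.78, 11.79 and 11.75 in OE. All OE libraries lay above all others, and the lowest KD library lay just above the highest parental one. CAT rose by 0.13 in OE (standard error 0.019, limma adjusted p = 1.67e-06). The KD difference of 0.032 was not called (adjusted p = 0.166 from limma) but passed after quantile normalization (0.044, adjusted p = 0.0498) and after block medians were removed (0.045, adjusted p = 0.0427, or 0.057 with those of genes reaching a mean rlog of 8), with adjusted p values of 0.0101 to 0.395 over all alternatives.

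**Figure D2:**
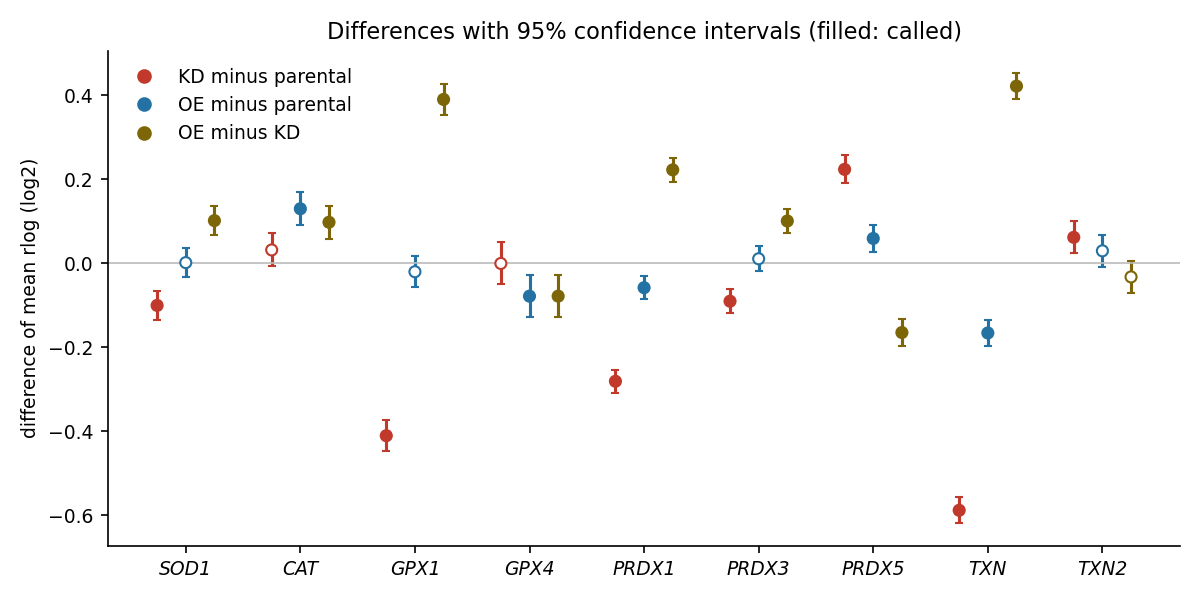
Differences of mean rlog (log2) for the 9 genes in 3 comparisons, with 95% confidence intervals from limma. Filled points were called at an adjusted p under 0.05, and the KD differences of TXN, GPX1 and PRDX1 are the lowest.

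In the libraries labelled OE, 2 of the 9 members rose against parental (CAT and PRDX5), 3 fell (TXN, PRDX1 and GPX4) and 4 were not called. Among all genes 16.9% were called higher and 18.0% lower, and the groups did not overlap in 5 of the 9 members, against 43.2% of all genes. The members' median difference was 0.0019, beside 3.9e-04 for all genes. In size, the members' median was 0.058, that of all genes 0.048, and that of the genes reaching a mean rlog of 8 was 0.073. This comparison and the KD comparison use the same parental libraries, so their values are set side by side and not counted as separate evidence.

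The libraries labelled OE and KD were also compared directly. Against KD, 6 members were higher in OE (TXN, GPX1, PRDX1, SOD1, PRDX3 and CAT), 2 were lower (PRDX5 and GPX4) and TXN2 was not called, while 23.5% of all genes were called higher and 23.8% lower. The groups did not overlap in any of the 9 members, against 54.1% of all genes, a share not taken for genes of like level. In size, the members' median was 0.10, that of all genes 0.065, and that of the genes reaching a mean rlog of 8 was 0.099. The differences were widest for TXN, at 0.42 (adjusted p = 2.60e-21 from limma), GPX1, at 0.39 (adjusted p = 1.89e-18 from limma), and PRDX1, at 0.22 (adjusted p = 3.06e-15 from limma). GPX4 was lower by a difference of -0.078 (adjusted p = 0.00877 from limma), which did not pass without KD replicate 3 (-0.060, adjusted p = 0.0701), without OE replicate 2 (-0.049, adjusted p = 0.127), with no variance trend (adjusted p = 0.0734) and with the block medians of genes reaching a mean rlog of 8 removed (adjusted p = 0.157, limma throughout). The OE mean lay between the parental and KD means for 5 of the 9 members and for 48.0% of all genes.

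Genes of the same chromosome region moved with the members that fell furthest. Within the 20-Mb block of TXN, 44 other genes reached a mean rlog of 8, and in KD 90.9% of them were below parental, their median difference being -0.36. Around GPX1, 94.9% of 138 such genes were lower in KD, with a median of -0.30. TXN was still lower than all but 2 of its neighbours, and 32 neighbours of GPX1 were lower than GPX1. With the median of each block removed from each library, the KD difference was -0.46 for TXN and -0.22 for GPX1. With that median taken only over genes reaching a mean rlog of 8, a correction chosen after seeing the data, they were -0.24 for TXN and -0.10 for GPX1, and both were still called (adjusted p = 3.55e-15 and 2.43e-06 from limma). The OE minus KD difference shrank likewise under this correction, to 0.14 for TXN and 0.086 for GPX1, and that of CAT from 0.098 to 0.056. Under it the OE minus KD difference of PRDX1, at 0.23, was the widest of the 9 members.

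PRDX1 and PRDX5 lay among neighbours whose median was near 0 in KD. The median over 102 neighbours of PRDX1 was -2.3e-04 and that over 192 neighbours of PRDX5 was 0.0028, and with block medians removed their KD differences were -0.29 and 0.22. In OE the neighbours of TXN had a median of -0.071 and those of GPX4 of -0.054. With the block median over genes reaching a mean rlog of 8 removed, the OE differences were -0.10 for TXN, 0.10 for PRDX5 (adjusted p = 5.08e-06 from limma), 0.072 for TXN2 (adjusted p = 0.00299 from limma) and -0.024 for GPX4 (adjusted p = 0.425 from limma). What sets the regional values was not tested.

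**Figure D3:**
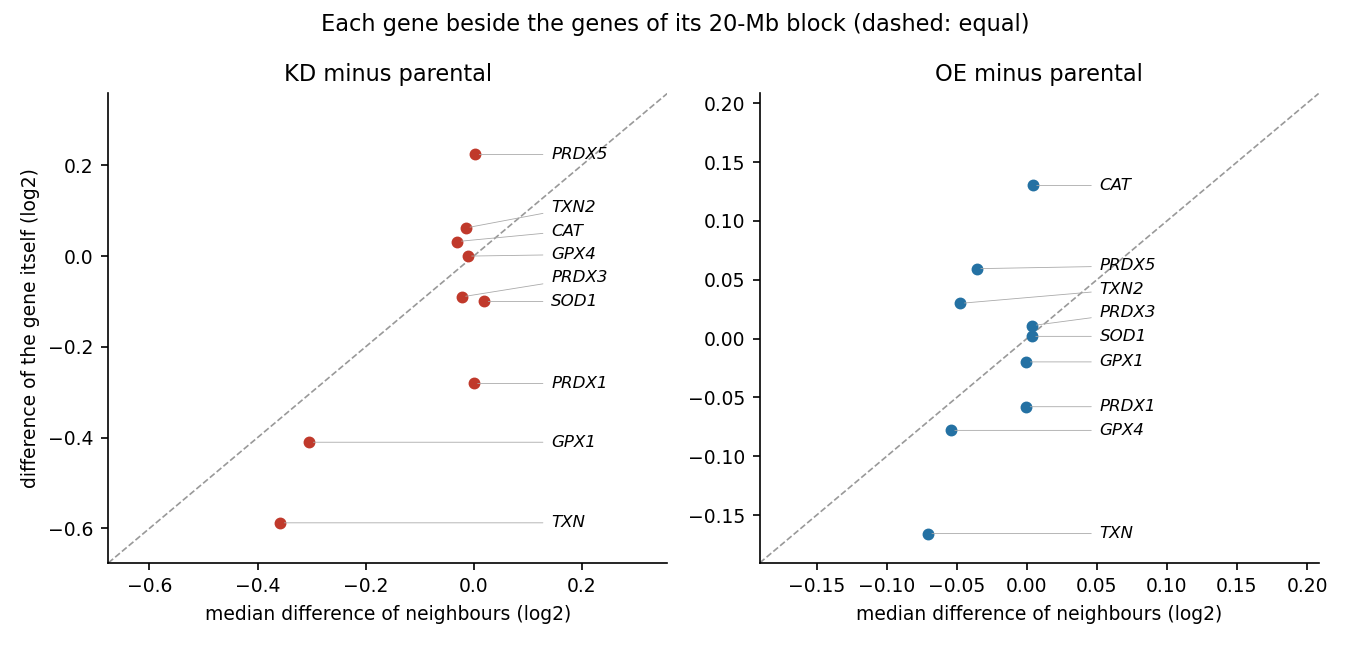
Difference of each of the 9 genes (vertical, log2) against the median difference of genes reaching a mean rlog of 8 in the same 20-Mb block (horizontal, log2), for KD and OE minus parental, on separate scales. On the dashed line both are equal, and TXN and GPX1 in KD have neighbours with medians of -0.36 and -0.30.

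Levels of the members were compared with each other per length, as rlog minus the log2 of the exonic length in kilobases. Exonic bases shared with other genes were kept in this length, 29.8% for PRDX1 and 39.9% for GPX1. How reads in shared bases were counted was not given in the sources used here. The places of PRDX1 and GPX1 in the order, in every group, are therefore uncertain. This length also joins the exons of all annotated transcripts of a gene, and which of them were present was not tested. The order of all members therefore depends on the annotation and is uncertain. In the parental libraries TXN was highest, at 13.19 ± 0.010 (SD, n = 3), followed by PRDX1 at 13.05 ± 0.024 (SD, n = 3) and PRDX5 at 12.69 ± 0.018 (SD, n = 3). GPX1 (12.21), SOD1 (11.70), PRDX3 (11.51), TXN2 (10.91) and GPX4 (10.63) came next, and CAT was lowest at 9.80 ± 0.012 (SD, n = 3). The libraries of neighbouring genes in this order did not overlap in any group, which shows the spread of the libraries only and not the uncertainty of the lengths. The gap between TXN and PRDX1 narrowed from 0.14 in the parental libraries to 0.028 in OE. In KD the order at the top changed, with PRDX5 first at 12.92 ± 0.0090 (SD, n = 3), PRDX1 next at 12.77 ± 0.014 (SD, n = 3) and TXN after them at 12.60 ± 0.012 (SD, n = 3), while the order of the other 6 was that of the parental libraries.

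**Figure D4:**
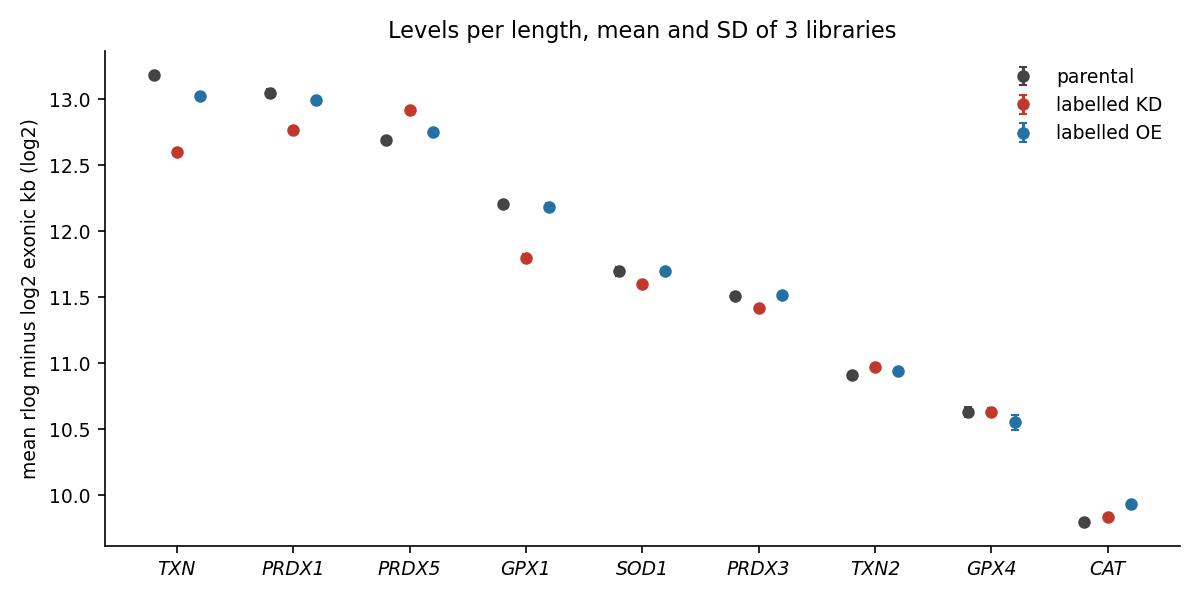
Level per length of the 9 genes, as mean rlog minus log2 of exonic kilobases, with the SD of 3 libraries. Genes are in the order of the parental libraries, and PRDX5 passes PRDX1 and TXN in the libraries labelled KD. Exonic bases shared with other genes, 29.8% for PRDX1 and 39.9% for GPX1, were kept in the length, so their places are uncertain. The length joins the exons of all annotated transcripts, so the order of all 9 genes depends on the annotation.

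Back on the linear scale, the 9 members summed to 61939, 62415 and 61189 in the parental libraries, 54619, 54256 and 55006 in KD and 60858, 60290 and 60985 in OE. The KD sums were below all others, and the OE sums lay below all parental sums by less. These sums are led by the most abundant genes and carry no test.

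Over all 9 libraries, the genes most like TXN and GPX1 were sought by the smallest root mean square difference of values centred on the parental mean, among 22194 genes with a symbol. POLE3 (0.012), DAG1 (0.021) and HSP90AA1 (0.022) were nearest to TXN. Their KD differences were -0.58, -0.58 and -0.56, and their OE differences -0.18, -0.15 and -0.18. POLE3 lies on chromosome 9 in the block of TXN, DAG1 on chromosome 3 in the block of GPX1, and HSP90AA1 on chromosome 14. FRG1EP (0.022), ANP32B (0.025) and TEX264 (0.025) were nearest to GPX1, with KD differences of -0.40, -0.39 and -0.44, and lie on chromosomes 20, 9 and 3, TEX264 in the block of GPX1.

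Related genes were read from 5 lists. Their counts stand beside 26.9% of all genes called higher and 26.9% lower in KD, and 16.9% and 18.0% in OE. Of other dismutases and peroxidases, 3 of 8 listed genes had values, and 2 rose and 1 fell in KD, with a median of 0.17, while 1 rose and none fell in OE, with a median of 0.037. Extracellular SOD3 rose from 10.56 ± 0.061 (SD, n = 3) to 11.94 ± 0.038 (SD, n = 3) in KD, by 1.38 (adjusted p = 2.82e-28 from limma), and its OE difference was -0.040 (adjusted p = 0.292 from limma). PRDX4, the peroxiredoxin of the endoplasmic reticulum, fell by 0.18 in KD, and this was -0.086 with the block medians of genes reaching a mean rlog of 8 removed. Secreted GPX3 rose by 0.17 in KD and 0.20 in OE.

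Among 20 genes of thiol recycling and glutathione supply with values, 7 rose and 11 fell in KD (median -0.069), and 4 rose and 10 fell in OE (median -0.060). GCLM, the modifier subunit of the enzyme that limits glutathione synthesis, fell by 0.80 in KD (adjusted p = 1.13e-20 from limma) and by 0.36 in OE (adjusted p = 2.23e-11 from limma). Its catalytic partner GCLC fell by 0.18 and by 0.093. TXNIP, which binds and inhibits thioredoxin, rose by 0.70 in KD (adjusted p = 2.01e-24 from limma) and by 0.56 in OE (adjusted p = 8.23e-21 from limma). The stress protein gene SESN2 fell by 0.51 and by 0.30. Nucleoredoxin, NXN, fell by 0.34 in KD and rose by 0.58 in OE, and OE minus KD was 0.91 (adjusted p = 9.94e-17 from limma). TXNRD1, the cytosolic reductase of TXN, fell by 0.072 and by 0.11.

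Of 5 selenoprotein synthesis genes with values, 1 rose and 2 fell in KD (median 0.044), and none rose and 1 fell in OE (median 0.0075). SECISBP2, which binds the selenocysteine insertion element, fell by 0.17 in KD as deposited, but was at 0.013 with block medians removed and higher by 0.18 with those of genes reaching a mean rlog of 8 removed. EEFSEC rose by 0.13 in KD. SEPHS2 fell by 0.059 in KD, or by 0.093 with the block medians of genes reaching a mean rlog of 8 removed, and by 0.054 in OE (adjusted p = 0.0105 from limma), and in OE it did not pass without parental replicate 2 (adjusted p = 0.0818), without OE replicate 2 (adjusted p = 0.0564) and with those block medians removed (adjusted p = 0.152).

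Among 24 sources of superoxide and peroxide with values, 7 rose and 5 fell in KD (median 0.022), and 6 rose and 6 fell in OE (median 0.021). ERO1B, an oxidase of the endoplasmic reticulum that makes hydrogen peroxide while forming disulfides, rose by 1.19 in KD (adjusted p = 4.87e-27 from limma), with an OE difference of 0.059 (adjusted p = 0.0828 from limma). MAOA, the monoamine oxidase of the outer mitochondrial membrane, rose by 0.54 in KD and 0.53 in OE. NOXA1, an activator of NADPH oxidase, rose by 0.59 in KD, and by 0.94 with the block medians of genes reaching a mean rlog of 8 removed. Its OE difference of 0.14 (adjusted p = 0.0398 from limma) was not called without parental replicate 3 (0.094, adjusted p = 0.230) or without OE replicate 2 (0.075, adjusted p = 0.327), nor in 4 other alternatives, and was 0.24 (adjusted p = 4.74e-04 from limma) with those block medians removed. XDH fell by 0.31 in KD and by 0.34 in OE, and HAO1 fell by 0.34 in OE, or by 0.19 with the block medians of genes reaching a mean rlog of 8 removed.

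All 13 regulators of the members had values, of which 7 rose and 3 fell in KD (median 0.060) and 3 rose and 5 fell in OE (median -0.0069). NFE2L2, the main activator of antioxidant genes, had differences of -0.029 in KD (adjusted p = 0.212 from limma) and -0.0069 in OE (adjusted p = 0.831 from limma). Other annotated genes overlap 38.4% of the exonic bases of NFE2L2. KEAP1, which targets the NFE2L2 protein for degradation, fell by 0.31 in KD (adjusted p = 4.94e-15 from limma) and by 0.16 in OE (adjusted p = 6.19e-08 from limma), or by 0.10 in OE with the block medians of genes reaching a mean rlog of 8 removed. The coactivator gene PPARGC1A rose by 0.62 in KD and by 0.21 in OE. FOXO3 rose by 0.21 in KD and by 0.089 in OE, and MAFK fell by 0.15 in KD and by 0.28 in OE. In OE, FOXO3 did not pass without OE replicate 3 (limma adjusted p = 0.0572). It also did not pass there with the block medians of genes reaching a mean rlog of 8 removed (limma adjusted p = 0.0713). RNA levels carry no information on the activity of these proteins.

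**Figure D5:**
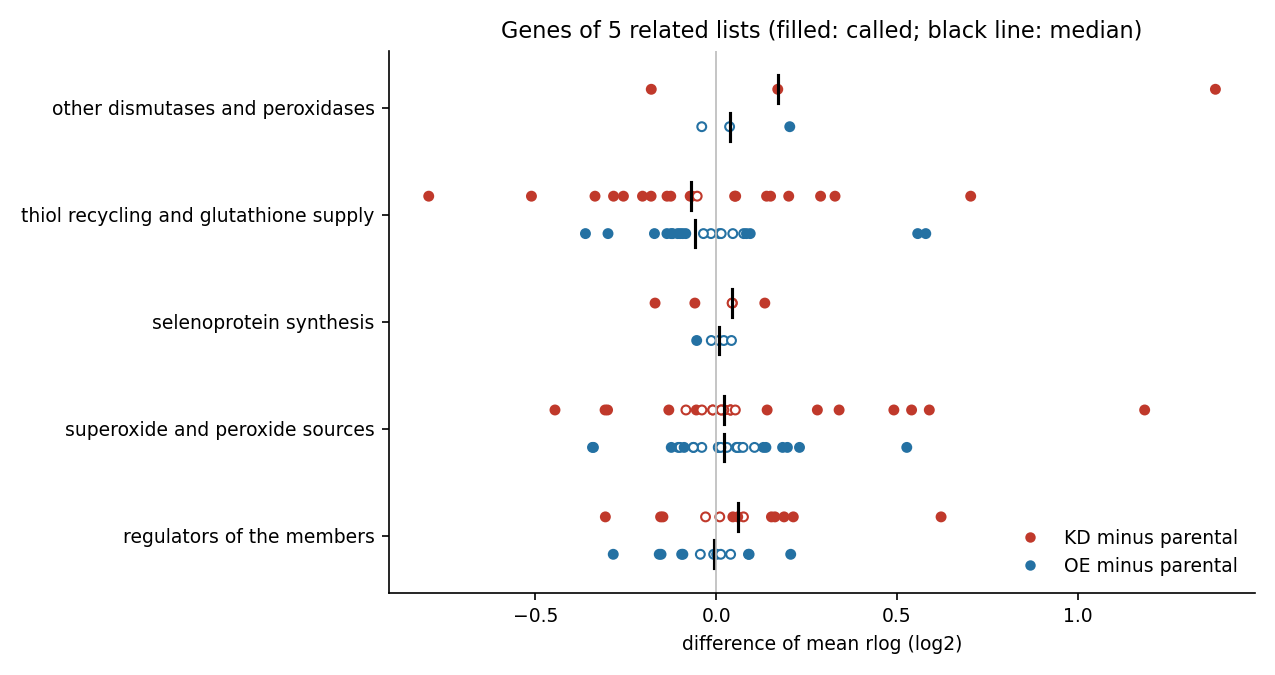
Differences of mean rlog (log2) of every gene with values in the 5 related lists, for KD and OE minus parental. Filled points were called, open points were not, and black lines are list medians, which lie between -0.069 and 0.17.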

How the data were processed

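Total RNA of the 9 libraries was sequenced by the authors after preparation with a TruSeq kit, trimmed with cutadapt, mapped to GRCh38 with HISAT2 and counted per gene with featureCounts of Subread, according to the study's methods. Genes of low total count were removed by the authors, and the submitters' processing notes also name DESeq2. The deposited values are on a log2 scale (rlog) for 22290 genes. Whether counting used strand was not given in the sources used here. Of the deposited table, 3 columns without values were not used.

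Symbols were matched to 22195 gene IDs. Group differences were fitted in all 9 libraries with limma 3.58.1 (R 4.3.3), letting the variance follow the mean level, Benjamini-Hochberg adjustment over 22290 genes, and calls at an adjusted p under 0.05. In simulated data the fit called most genes changed by 0.3, a minority of those changed by 0.1 and very few unchanged ones. RNA was isolated in triplicate and separate cultures were not stated, so p-values measure only the spread between these samples, which may be technical. Between libraries of the same group the root mean square difference was 0.058 to 0.063, and between groups 0.14 to 0.26. Alternatives changed the variance model, low-level filter, libraries, scaling, block medians, thresholds and replicates. Named genes were TRAP1, the members, the 3 largest called differences in each list for KD and OE, other called list genes, and the 3 genes most like each of the 2 members with the widest range. Cell type markers were named for their levels or calls, and some of them were not called. NFE2L2 was named although not called, after its values were seen. The members, lists, the 20-Mb blocks and the rlog limit of 8 were chosen with earlier results of these data known. The value of one listed marker is not reported here.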

Additional observations from a re-analysis of the deposited data

How the results depend on the processing

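Across 18 alternatives, 118 of 149 gene results kept their direction and side of the threshold in all. These results were of TRAP1, all members with values, and only those genes of the 5 related lists already called in the main fit. List genes not called there were not followed, so the share does not cover them. With an unadjusted p under 0.05 and a difference over 0.5, 1110 genes were called in KD, 200 in OE and 793 between OE and KD, and 1, 0 and 0 members, where the unadjusted p alone in limma called 12813, 9323 and 11633 genes and 7, 5 and 8 members. With only 6 libraries or with other variance models the member counts stayed within 1.5 times. Leaving out each library in turn gave 11106 to 12030 genes in KD, 6857 to 7762 in OE and 9636 to 10575 between OE and KD, and 7, 4 to 5 and 7 to 8 members.

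The libraries share replicate numbers, but same-numbered libraries had correlations of deviations between -0.071 and 0.14, and no pairing was assumed. With the replicate block, 12015, 7854 and 10623 genes and 7, 5 and 8 members were called.

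Signs turned for the following differences, and the cause was not tested. GPX4 in KD was 0.0059 after quantile normalization, 0.018 with block medians removed, 0.014 with those of genes of mean rlog 8 or more, and -0.019 to 0.019 without single libraries. SOD1 in OE was -0.016 with median-centred libraries, -0.0043 and -0.0048 with the block medians removed, and -0.017 to 0.015 without single libraries. TRAP1 in OE was -3.9e-05 with median-centred libraries and -0.012 (without OE replicate 3) to 0.042 (without OE replicate 2) without single libraries. PRDX3 in OE was -0.0069 with median-centred libraries. With block medians removed SECISBP2 in KD was 0.013. With those of genes of mean rlog 8 or more, SECISBP2 was 0.18 in KD and -0.097 in OE minus KD, ACOX2 in KD 0.0055, NFKB1 in KD -0.024, SMOX in OE 0.027 and TXN2 in OE minus KD 0.0022. The study's methods state a general sequencing depth, but rlog values do not show how deeply each library was read, and this and the shrinkage limit what small differences can show.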
